A study of Mus musculus with 10 samples.

Results

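The subject is a group of 10 transcripts that carry glucose into the cell and through glycolysis to lactate, out of 40501 genes counted. They were picked by gene symbol: the transporters Slc2a4 and Slc2a1, and the enzymes Hk2, Gpi1, Pfkl, Aldoa, Gapdh, Pgk1, Pkm and Ldha. The tissue was inguinal white fat, a subcutaneous depot, of male mice, and RNA-seq was the assay. The PexRAP-AKO group held 5 libraries from Cre-positive mice (replicates 1, 2, 3, 5 and 6), in which PexRAP, encoded by Dhrs7b, is deleted in adipose tissue. The Control group held 5 libraries from Cre-negative mice (replicates 2, 3, 5, 7 and 8). All mice ate chow for 8 weeks before harvest. The labels give 8 weeks both as the feeding time and as the age, so the age at harvest is uncertain, and the sources used here name neither the Cre driver nor the floxed allele. Nothing in the labels says whether each library came from a separate mouse, so p-values measure the spread between these libraries.

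Glucose enters fat cells through facilitative transporters and is phosphorylated by a hexokinase, which keeps it in the cell. Glycolysis then rearranges and splits the hexose, oxidises the resulting triose and yields pyruvate, which lactate dehydrogenase can turn into lactate. In adipocytes the triose step also feeds the glycerol backbone of triglyceride, and insulin raises uptake by moving GLUT4, the product of Slc2a4, to the cell surface. PexRAP is a reductase of the ether lipid pathway that acts on acyl and alkyl forms of dihydroxyacetone phosphate, a triose phosphate that glycolysis makes.

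Dhrs7b had 22.8, 19.0, 18, 21.8 and 17.9 CPM (read counts scaled to library size with TMM factors) in PexRAP-AKO libraries, against 95.6, 61.1, 85.7, 85.8 and 83.1 CPM in Control libraries. Every PexRAP-AKO library lay below every Control library, with a log2 fold change of -2.05 (SE 0.12, adjusted p = 1.54e-05 in edgeR's quasi-likelihood test). Per-library values run in the order of the replicate numbers above throughout, and fold changes are PexRAP-AKO over Control. Library totals ran from 11274865 to 19881168 counts. White adipocyte markers were high in all libraries, with summed levels of 42094 to 53749 CPM in PexRAP-AKO and 42567 to 56485 CPM in Control, led by Fabp4, Car3 and Cfd. Lymphocyte markers summed to 120.4 CPM in PexRAP-AKO replicate 6 and 40.7 CPM in Control replicate 8, and to at most 19.9 CPM elsewhere. All 8 endothelial markers had a negative log2 fold change (median -0.21), and those of macrophages, adipose progenitors, nerve sheath and erythroid cells had medians of 0.15, 0.02, -0.29 and 0.13. Of 7 epithelial markers 2 were tested, both positive, and their list summed to 67.7 CPM in PexRAP-AKO replicate 6, against 2.02 to 3.65 CPM in the other PexRAP-AKO libraries and 2.89 to 12.3 CPM in Control. None of these lists held a gene past the adjusted test in edgeR. At an unadjusted p under 0.05, 3 endothelial, 3 nerve sheath and 1 white adipocyte marker were lower, against 6.44% of all genes tested. All 9 lymphocyte markers tested were positive (median 1.35), 2 of them at an unadjusted p under 0.05, against 9.01% of all genes in that direction. Of 10 white adipocyte markers, 8 were negative (median -0.10). These are bulk tissue values, in which fewer cells of a type and less RNA per cell cannot be told apart.

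Most of the 10 transcripts averaged higher in PexRAP-AKO, by less than the adjusted test requires. Of them, 8 had a positive fold change and 2, Slc2a1 and Hk2, a negative one; the median on the log2 scale was 0.32. Over the 14913 genes tested, 49.8% were positive and the median was -0.00064. None of the 10 passed an adjusted p of 0.05 in edgeR, which 0.101% of all genes did (0.0939% higher), nor an adjusted p of 0.1, which 0.657% did. At an unadjusted p under 0.05 stood 3 of the 10, Aldoa, Ldha and Gpi1, all higher in PexRAP-AKO, against 9.01% of all genes in that direction. The groups overlapped for each of the 10. Of all genes, 2.08% had every PexRAP-AKO library above every Control library and 1.33% every one below. These shares are too small for an overlap in all 10 to set the transcripts apart. DESeq2 called 1 of the 10, Aldoa, against 4.27% of the genes for which it gave an adjusted p, and had 4 at an unadjusted p under 0.05, all higher, against 8.95% of all genes.

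**Figure D1:**
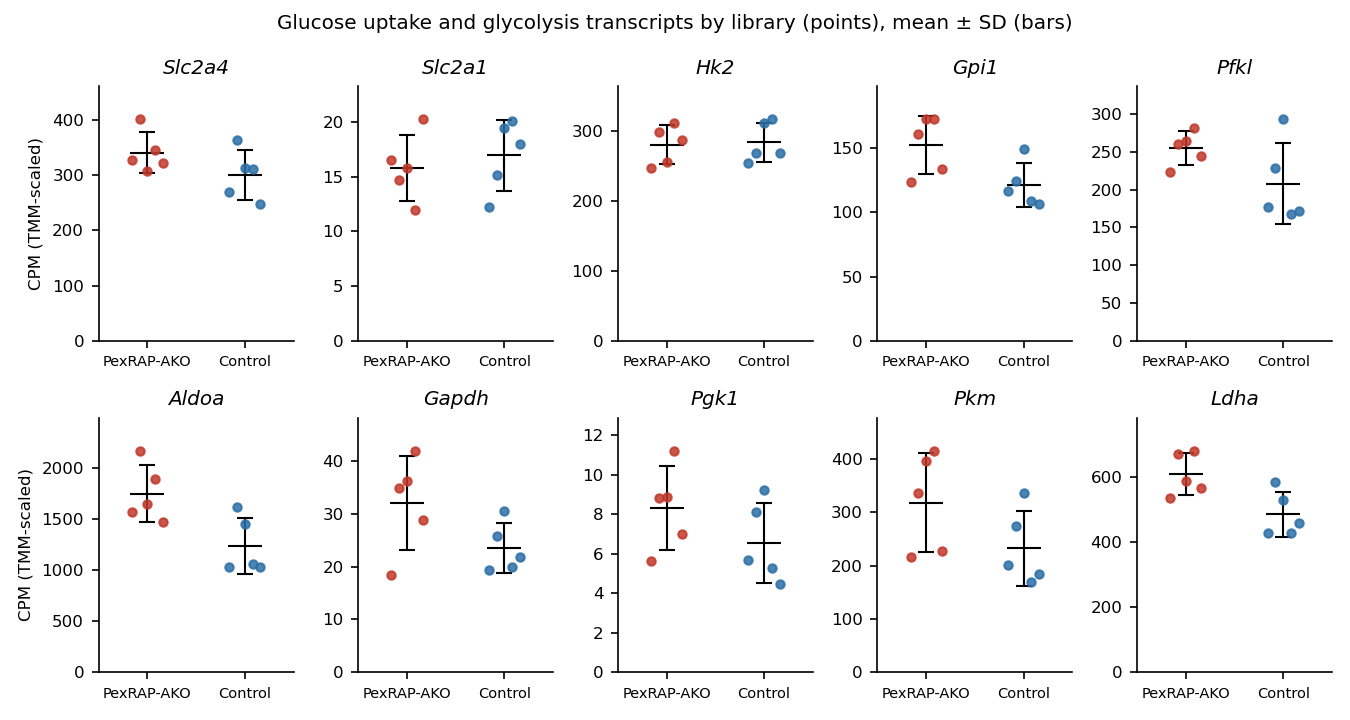
Level of each of the 10 transcripts in CPM (TMM-scaled) on the vertical axis of each panel, which starts at 0, with PexRAP-AKO left of Control. Points are libraries (n = 5 a group) and bars the mean ± SD; the groups overlap in all 10 panels, and Aldoa, at 1752 CPM in PexRAP-AKO and 1239 CPM in Control on average, was the highest.

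Neither transporter passed the test, at 1.13-fold of Control for Slc2a4 and 0.933-fold for Slc2a1. Slc2a4 (chromosome 11, 69942539 to 69948188, minus strand, GRCm38) encodes GLUT4, the insulin-responsive transporter of fat and muscle. It had 328, 401, 307, 346 and 321 CPM in PexRAP-AKO libraries, against 269, 363, 313, 310.3 and 247 CPM in Control libraries. PexRAP-AKO replicate 2 was the only library above every Control library, and 2 Control libraries lay below the PexRAP-AKO range. The log2 fold change was 0.18 (SE 0.11, 95% interval -0.06 to 0.42, edgeR adjusted p = 0.463). Slc2a1 (chromosome 4, 119108711 to 119137983, plus strand), which encodes the basal transporter GLUT1, had 16.5, 14.7, 15.8, 11.9 and 20.2 CPM in PexRAP-AKO, against 12.2, 15.2, 19.4, 20.1 and 17.96 CPM in Control. Its groups spanned nearly the same range, and the log2 fold change was -0.10 (SE 0.16, interval -0.44 to 0.24, edgeR adjusted p = 0.808). Per kilobase of exon, Slc2a4 stood at 97.9 ± 10.5 CPM in PexRAP-AKO and 86.4 ± 12.9 CPM in Control, and Slc2a1 at 4.51 ± 0.86 and 4.84 ± 0.93 CPM per kilobase in PexRAP-AKO and Control (SD, n = 5 each).

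Hk2 (chromosome 6, 82725025 to 82774454, minus strand), the hexokinase of insulin-sensitive tissues, had the smallest difference of the 10. Its levels were 248, 299.5, 257, 312 and 287 CPM in PexRAP-AKO, against 254, 269, 312, 317 and 269 CPM in Control. No library of either group stood apart, and the log2 fold change was -0.02 (SE 0.09, edgeR adjusted p = 0.946). The 95% interval ran from -0.21 to 0.18. It also had the narrowest spread of the 10, a range of 0.36 log2 units over all 10 libraries, where Pkm covered 1.30.

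The next enzymes of the upper pathway, Gpi1 and Pfkl, averaged 1.26-fold and 1.23-fold of Control without passing the adjusted test. Gpi1 (chromosome 7, 34201330 to 34230336, minus strand), which converts glucose 6-phosphate to fructose 6-phosphate, had 124, 161, 172, 172 and 134 CPM in PexRAP-AKO, against 117, 125, 149, 109 and 106 CPM in Control. PexRAP-AKO replicates 2, 3 and 5 exceeded every Control library, and the log2 fold change was 0.33 (SE 0.12, interval 0.08 to 0.59, edgeR adjusted p = 0.219). Pfkl (chromosome 10, 77986947 to 78010083, minus strand), the liver-type subunit of phosphofructokinase, the committing step, had 224, 261, 265, 281 and 244 CPM in PexRAP-AKO. Its Control libraries had 177, 228, 293, 167 and 172 CPM, so that the highest value of all came from Control replicate 5 while 3 Control libraries lay below the PexRAP-AKO range. The log2 fold change was 0.30 (SE 0.15, interval -0.03 to 0.62, edgeR adjusted p = 0.370).

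Aldoa (chromosome 7, 126795234 to 126800751, minus strand) had the largest fold change of the 10 and the highest level. It encodes the aldolase that splits fructose 1,6-bisphosphate into the triose phosphates, dihydroxyacetone phosphate among them. It had 1575, 2171, 1653, 1892 and 1471 CPM in PexRAP-AKO, against 1037, 1622, 1451, 1057 and 1029.8 CPM in Control. PexRAP-AKO replicates 2, 3 and 5 lay above all Control libraries, all PexRAP-AKO libraries lay above 4 of the Control ones, and Control replicate 3 reached into the PexRAP-AKO range. The log2 fold change was 0.50, or 1.41-fold (SE 0.16, interval 0.15 to 0.85, edgeR adjusted p = 0.188). DESeq2 gave the same size of change, 0.50, with an adjusted p of 0.0405.

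Gapdh and Pgk1 follow in the triose part of the pathway. Gapdh (chromosome 6, 125161715 to 125166467, minus strand), the dehydrogenase that oxidises glyceraldehyde 3-phosphate, had 18.4, 34.8, 36.2, 41.9 and 28.8 CPM in PexRAP-AKO, against 19.4, 25.7, 30.5, 19.97 and 21.9 CPM in Control. PexRAP-AKO held both the highest library, replicate 5, and the lowest, replicate 1. The log2 fold change was 0.44 (SE 0.20, interval -0.01 to 0.89, edgeR adjusted p = 0.337). Pgk1 (chromosome X, 106187100 to 106203699, plus strand), a kinase that makes ATP from the Gapdh product, had 5.66, 8.83, 8.89, 11.2 and 6.98 CPM in PexRAP-AKO, against 5.69, 8.09, 9.22, 5.28 and 4.49 CPM in Control. Only PexRAP-AKO replicate 5 exceeded every Control library, and the log2 fold change of 0.32 (SE 0.23, interval -0.17 to 0.82) had an edgeR adjusted p of 0.526.

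At the end of the pathway, Pkm (chromosome 9, 59656368 to 59679375, plus strand) encodes the pyruvate kinase of most non-liver tissues. It had 216, 336, 395, 415 and 227 CPM in PexRAP-AKO, against 200.2, 274, 336, 169 and 185 CPM in Control. PexRAP-AKO replicates 1 and 6 lay among the Control libraries and the others at or above the top of Control, and the log2 fold change was 0.45 (SE 0.24, interval -0.09 to 0.98, edgeR adjusted p = 0.412). Ldha (chromosome 7, 46841475 to 46855627, plus strand), the lactate dehydrogenase subunit that predominates in muscle, had 536, 671, 586, 680.3 and 566 CPM in PexRAP-AKO, against 429, 585, 528, 427 and 459 CPM in Control. All PexRAP-AKO libraries lay above 4 of the Control libraries, and Control replicate 3 lay within their range. The log2 fold change was 0.32, or 1.25-fold (SE 0.11, interval 0.08 to 0.56, edgeR adjusted p = 0.209).

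The same libraries were high or low for most of the 10 transcripts. PexRAP-AKO replicate 5 was among the top 3 libraries for 9 of them, PexRAP-AKO replicate 3 for 7 and PexRAP-AKO replicate 2 for 6. Control replicate 2 was among the bottom 3 for 9, and Control replicates 7 and 8 for 7 each. PexRAP-AKO replicates 1 and 6 were in the top 3 for 0 and 1 of them, and Control replicate 5 for 4. Such places were not counted over all genes, so the pattern cannot be called particular to these transcripts.

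Brown adipocyte markers differed widely between the libraries. Their summed level was 652, 1530.1, 2949.6, 2906 and 1538 CPM in PexRAP-AKO, against 913, 1111, 2310.4, 432 and 326 CPM in Control. Of 12 markers listed, 11 were tested and 10 were positive (median 0.81). Ucp1, the uncoupling protein of brown and beige fat, had 94.0, 518, 1600.2, 1368 and 607 CPM in PexRAP-AKO and 318, 380.4, 1157, 40.5 and 28.5 CPM in Control. Zic1, a marker of classical brown fat picked with its values known, stayed near 0 (at most 0.23 CPM in any library). None of the markers passed edgeR's adjusted test. At an unadjusted p under 0.05, 3 were higher and 1 lower, against 9.01% and 6.44% of all genes.

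The level of 7 of the 10 transcripts was related over the 10 libraries to the brown adipocyte score, the mean log2 CPM of the 11 tested markers. These relations were examined after the values were seen, 20 in all with the muscle score below. Libraries of both groups were pooled, since 5 a group are too few for a relation within each group. The share of all genes related to either score was not examined, so these relations cannot be called particular to the 10 transcripts. Pearson's r was 0.94 for Pgk1 (Spearman's rho 0.98), 0.92 for Gpi1 (0.96), 0.90 for Pkm (0.95), 0.90 for Pfkl (0.94) and 0.84 for Gapdh (0.88), with permutation p adjusted over the 20 relations of 0.0085 or less for r and 0.0068 or less for rho. Without Control replicates 7 and 8, which lay farthest from the median score, r was between 0.78 and 0.94 for these 5. For Ldha r was 0.75 (rho 0.77, adjusted permutation p = 0.0415 and 0.0353) and 0.55 without those libraries, and for Aldoa 0.73 (rho 0.72, adjusted permutation p = 0.0476 and 0.0534) and 0.41 without them, so both relations rest on them. Slc2a4, with r of 0.52, Hk2, with 0.21, and Slc2a1, with -0.35, passed no test. These values rest on the same 2 libraries too, since without them r was 0.15 for Slc2a4, 0.67 for Hk2 and 0.0082 for Slc2a1.

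**Figure D2:**
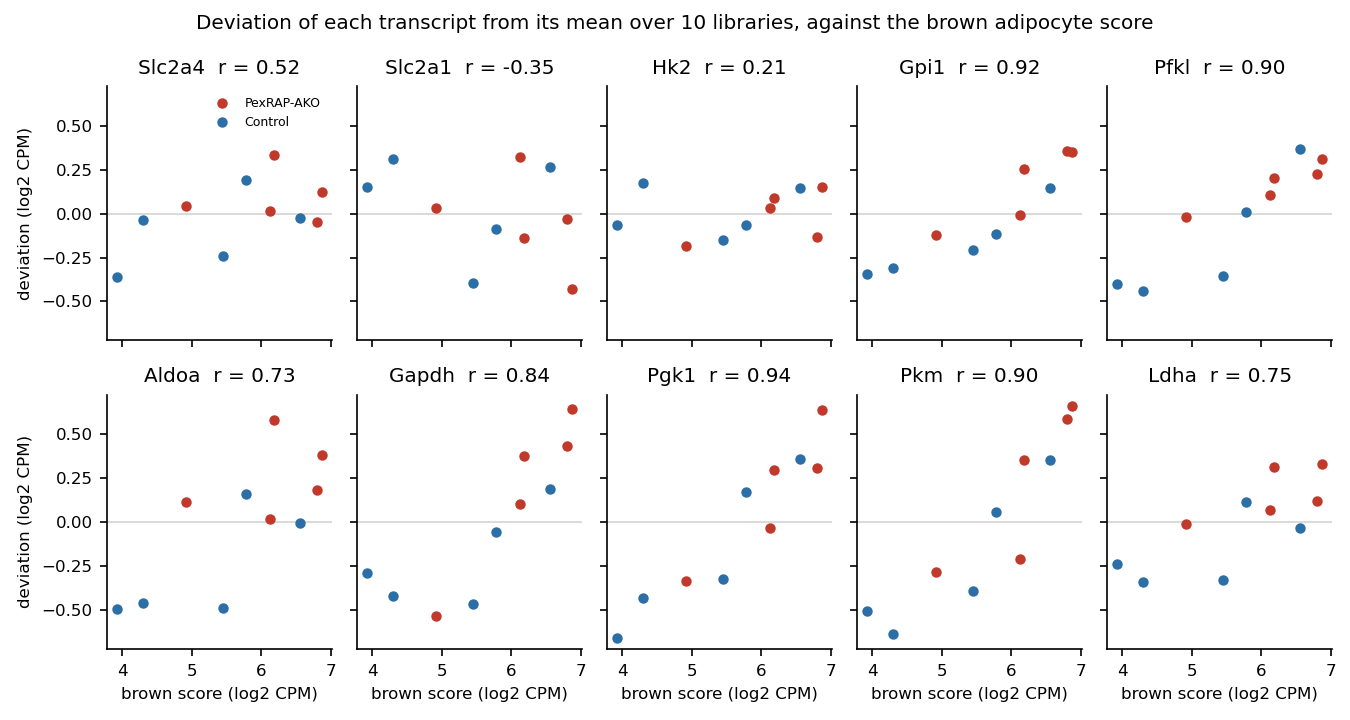
Deviation of each transcript from its mean over the 10 libraries (vertical axis, log2 CPM) against the brown adipocyte score of the library (horizontal axis, mean log2 CPM of 11 markers), 1 panel a transcript, with PexRAP-AKO and Control libraries in different colours. Points rise with the score for Pgk1 (r = 0.94) and Gpi1 (r = 0.92) and not steadily for Hk2 (r = 0.21, and 0.67 without Control replicates 7 and 8, which have the lowest scores).

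When the brown adipocyte score entered edgeR's fit as a covariate, log2 fold changes were nearer 0 for Pkm (0.07), Pfkl (0.09), Gapdh (0.12), Gpi1 (0.14) and Pgk1 (-0.04). They were 0.34 for Aldoa, against 0.50 without the score, and 0.21 for Ldha, against 0.32. Of the 10, 1 (Aldoa) was higher at an unadjusted p under 0.05, against 5.37% of all genes in that fit. Whether brown adipocyte content has a part in the group differences was not tested beyond these values.

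Skeletal muscle markers also differed between libraries. Their summed level was 273, 75.5, 282, 165 and 361 CPM in PexRAP-AKO, against 973, 82.2, 838, 148 and 2309 CPM in Control, and all 15 markers tested of 17 listed had a negative fold change (median -1.92). Ttn, Myh4 and Acta1, proteins of the sarcomere, were the most abundant, and Tnnc2, a troponin picked with its values known, was at 0 in every PexRAP-AKO library. None of the 15 passed the adjusted test in edgeR, and 8 were lower at an unadjusted p under 0.05, against 6.44% of all genes. Slc2a4 was lower where the muscle score was higher, with r of -0.91 and rho of -0.82 (adjusted permutation p = 0.00195 and 0.0203), and r of -0.80 without PexRAP-AKO replicate 2 and Control replicate 8. Aldoa had r of -0.68 and rho of -0.73 (adjusted permutation p = 0.0702 and 0.0518), and -0.38 without those libraries. With the muscle score as a covariate the log2 fold change was 0.06 for Slc2a4, 0.37 for Aldoa and 0.26 for Ldha. The part of muscle tissue in these values was not tested further.

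**Figure D3:**
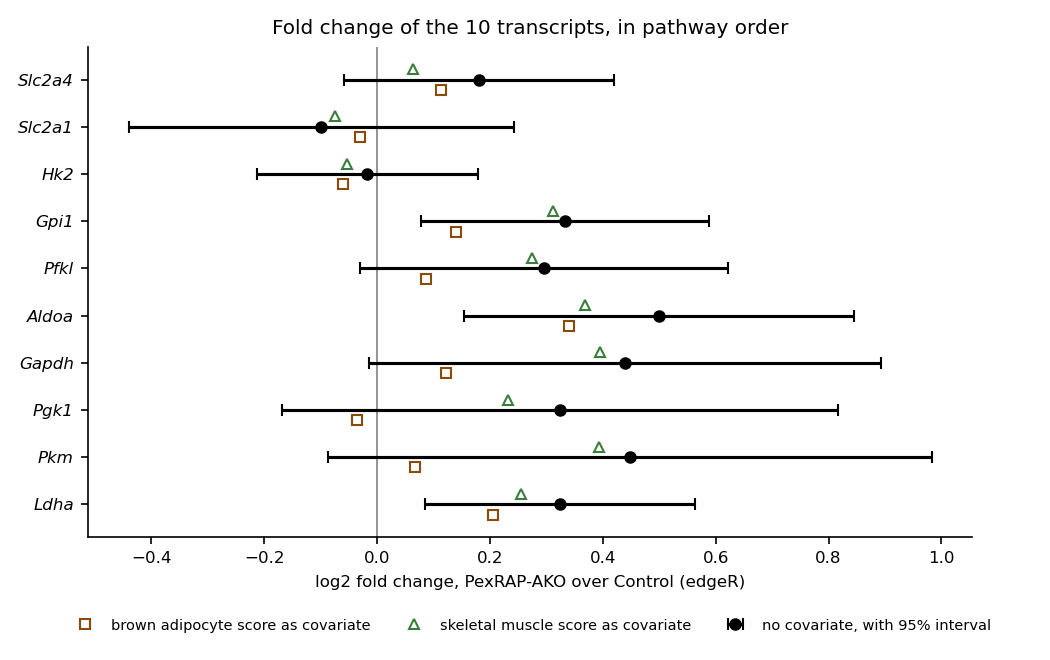
Log2 fold change of PexRAP-AKO over Control (horizontal axis, edgeR) for the 10 transcripts in pathway order, with the 95% interval as a bar and open symbols for fits with a marker score as covariate. The intervals of Gpi1, Aldoa and Ldha lie above 0 without a covariate, and the symbols with the brown adipocyte score lie left of the filled points for 9 of the 10.

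Levels of the 10 transcripts, compared per kilobase of merged exon, ran over a wide range and did not follow the order of the pathway. Aldoa stood at 602 ± 96.4 CPM per kilobase in PexRAP-AKO and 426 ± 95.5 in Control, and Ldha followed at 184 ± 19.5 in PexRAP-AKO and 147 ± 20.9 in Control (SD, n = 5 each). Slc2a4 came next, then Pkm, Hk2, Pfkl and Gpi1. This order depends on the length used, since merged exons of Pfkl hold 6675 bases against 2340 coding ones. Those of Hk2 hold 5969 against 2751. In Control, Pkm (46.5 ± 14.04 CPM per kilobase) and Hk2 (47.6 ± 4.75) did not differ beyond their spread. At the lower end stood Gapdh, at 7.75 ± 2.16 CPM per kilobase in PexRAP-AKO and 5.68 ± 1.13 in Control, and Pgk1, at 3.70 ± 0.94 in PexRAP-AKO and 2.92 ± 0.89 in Control. In PexRAP-AKO, Slc2a1 (4.51 ± 0.86) and Pgk1 did not differ beyond their spread.

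Gapdh and Pgk1 are also the members whose coding sequence is most often found elsewhere in the genome, in pseudogene copies. In the GENCODE M21 transcripts, 94.2% of the 50-base windows of the Gapdh coding sequence and 100% of those of Pgk1 occur in a gene at another place. The share was 46.9% for Pkm, 32.4% for Gpi1, 28.4% for Ldha, 16.8% for Aldoa and 0 for Slc2a4, Slc2a1, Hk2 and Pfkl. Gapdh shared a window of its transcripts with 222 genes elsewhere, of which 213 are annotated pseudogenes, and Pgk1 with 5, all pseudogenes. Shown here is a window of each coding sequence that recurs in full, capitals marking the shared bases, which is all of them; the Gapdh window (coding bases 493 to 542) occurs in 84 genes elsewhere and the Pgk1 window (bases 927 to 976) in 3.
Gapdh: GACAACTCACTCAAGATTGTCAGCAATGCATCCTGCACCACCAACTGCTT
Pgk1: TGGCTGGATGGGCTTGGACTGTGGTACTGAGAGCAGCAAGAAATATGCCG
How reads that match several places were counted is not stated in these sources. The levels and fold changes of Gapdh, Pgk1, Pkm, Gpi1, Ldha and Aldoa are therefore uncertain. So are those of Ldhb and Tpi1, reported below, with 35.6% and 13.7% of coding windows in genes elsewhere. Ratios that include any of these genes share this limit. Exons of Pkm overlap the same-strand gene Gm49759 over 15.3% of their length, and those of Gpi1 the antisense gene Gm26762 over 11.5%.

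**Figure D4:**
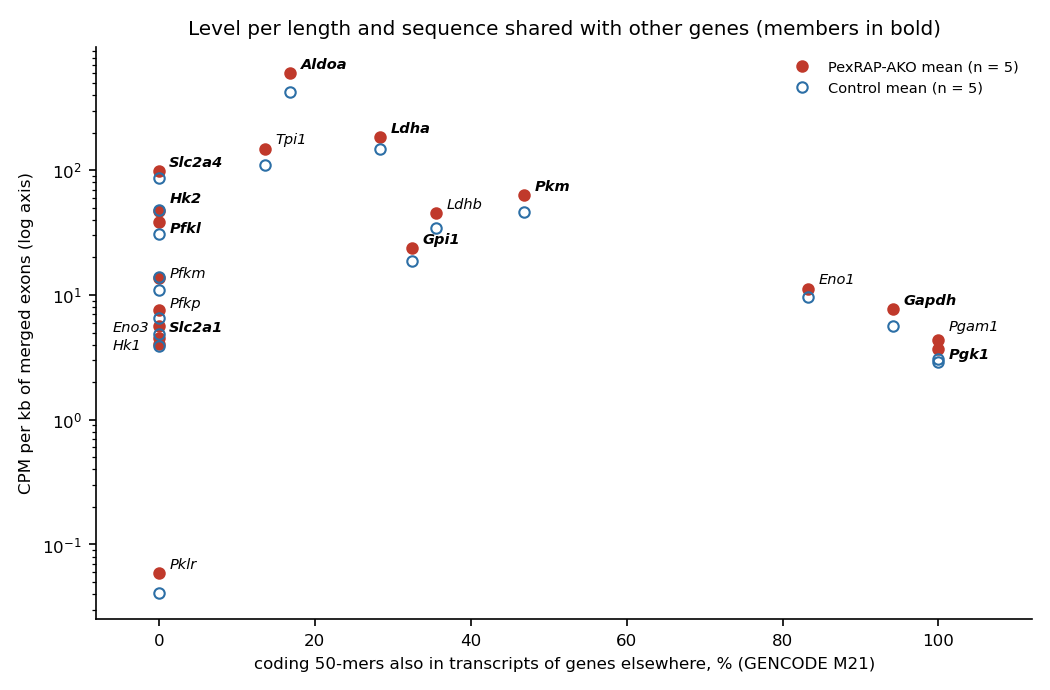
Mean level of each transcript in CPM per kilobase of merged exon (vertical axis, log scale) against the percentage of 50-base windows of its coding sequence found in genes elsewhere (horizontal axis), for the 10 members in bold and related isozymes, PexRAP-AKO filled and Control open. Gapdh (94.2%) and Pgk1 (100%) lie at the lower right, and Aldoa (16.8%) at the top.

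Ratios between transcripts within a library do not depend on library scaling. None of 14 ratios passed exact two-sided permutation tests between the groups, either adjusted or at an unadjusted p under 0.05, where 5 against 5 libraries allow a smallest p of 0.00794. The Slc2a4 to Slc2a1 ratio had a median of 19.8 in PexRAP-AKO (15.8 to 28.9) and of 16.1 in Control (13.7 to 23.9), with an exact permutation p of 0.214. The Pfkl to Pfkm ratio, liver-type over muscle-type subunit, had a median of 5.78 in PexRAP-AKO (4.94 to 6.005) and of 4.24 in Control (2.96 to 6.73), with an exact permutation p of 0.143. All 5 PexRAP-AKO libraries lay above the Control median for Pfkl over Pfkm, and both ends of the range came from Control. Of the 9 ratios to Gapdh, Hk2 over Gapdh had the lowest p, with a mean log2 difference of -0.43 (exact permutation p = 0.0794, adjusted p = 0.750). For Aldoa, Pkm and Ldha over Gapdh the differences were 0.10, 0.03 and -0.09.

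Other genes of glucose metabolism, in 10 lists by role, were divided in direction. Of 76 tested, 36 had a positive and 40 a negative fold change, none passed the adjusted test in edgeR, and 10 were higher and 9 lower at an unadjusted p under 0.05, against 9.01% and 6.44% of all genes. DESeq2 called 5 of them, Tpi1, Mlx, Hif1a and Srebf1 higher and Ndrg1 lower. It gave no adjusted p for 13 of the 76, and called 4.27% of all genes that had one.

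Among the lower-glycolysis enzymes outside the 10, Tpi1, which interconverts the triose phosphates, had 402, 502, 377, 416 and 355 CPM in PexRAP-AKO, against 279.6, 357, 310.2, 281 and 294 CPM in Control. Its groups were parted except that Control replicate 3 stood just above PexRAP-AKO replicate 6, and the log2 fold change was 0.43 (SE 0.10, edgeR adjusted p = 0.125, DESeq2 adjusted p = 0.00492). Pgam1, a phosphoglycerate mutase, averaged 8.70 ± 0.94 CPM in PexRAP-AKO and 6.04 ± 1.72 CPM in Control (SD, n = 5 each, edgeR adjusted p = 0.213), and 100% of its coding windows occur in genes elsewhere. Ldhb, the heart-type lactate dehydrogenase subunit, averaged 71.4 ± 13.8 CPM in PexRAP-AKO and 53.8 ± 16.3 CPM in Control (edgeR adjusted p = 0.416). Eno3, the muscle enolase, chosen after its values were seen, averaged 9.80 ± 2.52 CPM in PexRAP-AKO and 19.0 ± 13.0 CPM in Control (edgeR adjusted p = 0.300). Of the 10 tested in this list, 2 were higher and 2 lower at an unadjusted p under 0.05, against 9.01% and 6.44% of all genes.

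At the phosphofructokinase step, Pfkm was at 45.4 ± 0.96 CPM in PexRAP-AKO and 46.4 ± 7.18 CPM in Control, and Pfkp, the platelet-type subunit, at 102 ± 13.2 CPM in PexRAP-AKO and 87.7 ± 7.48 CPM in Control (SD, n = 5 each; edgeR adjusted p = 0.905 and 0.295). Tigar, a phosphatase that removes fructose 2,6-bisphosphate, averaged 16.6 ± 2.86 CPM in PexRAP-AKO and 12.7 ± 1.07 CPM in Control (edgeR adjusted p = 0.176). Its groups did not overlap, as for 2.08% of all genes in that direction. Pfkfb3, which makes fructose 2,6-bisphosphate, averaged 804 ± 92.7 CPM in PexRAP-AKO and 1054 ± 215 CPM in Control (edgeR adjusted p = 0.225). Hk1, the widely expressed hexokinase, had a log2 fold change of 0.06 (edgeR adjusted p = 0.810).

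None of the genes of GLUT4 traffic and of other transport passed the test. Of 14 GLUT4 traffic genes, 11 were negative (median -0.07), and 2, against 6.44% of all genes, were lower at an unadjusted p under 0.05. These were Vamp2, a vesicle fusion protein, at 30.8 ± 1.71 CPM in PexRAP-AKO and 34.9 ± 3.24 CPM in Control, and Lnpep, the insulin-regulated aminopeptidase carried in GLUT4 vesicles, at 208 ± 7.97 CPM in PexRAP-AKO and 239 ± 28.5 CPM in Control (SD, n = 5 each; edgeR adjusted p = 0.280 and 0.291). Among 8 other transporters, Slc2a12 had a log2 fold change of -0.35 and Slc2a9 of -0.22 (edgeR adjusted p = 0.273 and 0.466). For lactate export, the transporter Slc16a1 had a log2 fold change of 0.32 and its chaperone Bsg of 0.14 (edgeR adjusted p = 0.329 and 0.424).

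In the branch to glycerol, Gpd1, which reduces dihydroxyacetone phosphate, averaged 1885 ± 422 CPM in PexRAP-AKO and 1482 ± 447 CPM in Control, and the mitochondrial Gpd2 averaged 251 ± 75.4 CPM in PexRAP-AKO and 191 ± 71.3 CPM in Control (SD, n = 5 each; edgeR adjusted p = 0.471 and 0.546). G6pc3, a ubiquitous glucose 6-phosphatase, had a log2 fold change of 0.27 and Pck2, a mitochondrial carboxykinase, of -0.24 (edgeR adjusted p = 0.160 and 0.284).

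Of 9 regulators of glycolytic genes, 4 had a positive and 5 a negative fold change (median -0.06). At an unadjusted p under 0.05, 3 were higher and 1 lower, against 9.01% and 6.44% of all genes. Mlx, the partner of the glucose-sensing factor ChREBP, had 22.8, 30.4, 35.8, 33.1 and 26.1 CPM in PexRAP-AKO, against 19.3, 21.8, 23.2, 19.97 and 17.96 CPM in Control. Only Control replicate 5 reached above the lowest PexRAP-AKO library, and the log2 fold change was 0.53 (SE 0.12, edgeR adjusted p = 0.111, DESeq2 adjusted p = 0.00627). Hif1a, the oxygen-sensitive factor that drives many glycolytic genes, averaged 111 ± 7.31 CPM in PexRAP-AKO and 96.3 ± 3.52 CPM in Control (edgeR adjusted p = 0.163, DESeq2 adjusted p = 0.0304). Arnt, the 1 lower, and Mlxipl (ChREBP), both picked with their values known, had log2 fold changes of -0.15 and -0.26 (edgeR adjusted p = 0.242 and 0.409). Of 8 hypoxia targets outside glycolysis, 4 were positive and 4 negative. Ndrg1, a stress-responsive gene, averaged 55.3 ± 8.72 CPM in PexRAP-AKO and 79.5 ± 11.9 CPM in Control, and Egln3, a HIF prolyl hydroxylase, 4.62 ± 0.96 CPM in PexRAP-AKO and 2.87 ± 1.19 CPM in Control (SD, n = 5 each; edgeR adjusted p = 0.122 and 0.244).

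**Figure D5:**
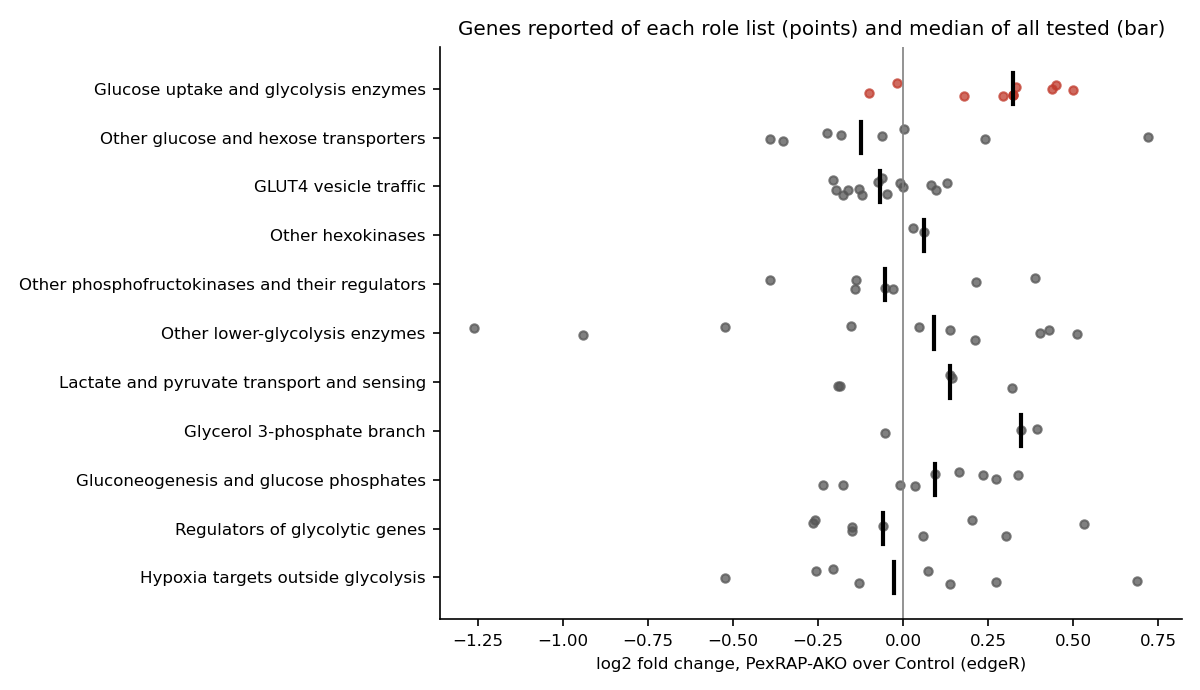
Log2 fold change of PexRAP-AKO over Control (horizontal axis, edgeR) of each gene reported, as points, in the group of 10 and in 10 role lists of other glucose metabolism genes (rows), with the median over all tested genes of each list as a bar. The median of the 10 is 0.32, and those of the other lists lie between -0.12 and 0.35.

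Promoters of the 10 were read for the core of the HIF and E-box motifs, ACGTG on either strand, and for the GC box GGGCGG on either strand. RefSeq promoters (GRCm38.p6), of which the 250 bases before the start site were used, were found for 9 of the 10, 13 in all since several genes have more than 1 start. ACGTG was in 7 of the 13 (53.8%), belonging to 6 genes, against 16.6% of all 32851 promoters of that length. GGGCGG was in 8 of the 13 (61.5%), against 32.7% of all. A pair of Aldoa promoters overlap and hold the same ACGTG site, so that site is counted 2 times, and both are also among the 8 with GGGCGG. The 13 promoters held 50.4% to 69.6% G and C, with a median of 52.4% over all promoters, so the shares are not matched for base composition. CACGTG, which holds ACGTG on both strands, was in 1 of the 13, a promoter of Ldha, against 6.02% of all promoters. A match is a description of these letters and not evidence of binding.

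Shown is a promoter each of Aldoa and Ldha, which had the lowest p of the 10, and of Hk2, whose levels hardly differed. Each is on the strand of its gene, with ACGTG or its reverse complement CACGT in capitals. The Ldha sequence (chr7:46845554-46845803, plus strand) counts 5 such matches, 4 of them from 2 copies of CACGTG, the Aldoa sequence (chr7:126799179-126799428, minus strand) 1, and the Hk2 sequence (chr6:82774455-82774704, minus strand) 2.
Ldha: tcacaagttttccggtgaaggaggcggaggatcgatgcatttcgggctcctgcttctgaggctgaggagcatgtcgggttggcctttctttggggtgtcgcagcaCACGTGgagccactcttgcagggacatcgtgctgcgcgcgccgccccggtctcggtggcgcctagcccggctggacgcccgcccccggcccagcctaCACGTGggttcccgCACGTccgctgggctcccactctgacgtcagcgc
Aldoa: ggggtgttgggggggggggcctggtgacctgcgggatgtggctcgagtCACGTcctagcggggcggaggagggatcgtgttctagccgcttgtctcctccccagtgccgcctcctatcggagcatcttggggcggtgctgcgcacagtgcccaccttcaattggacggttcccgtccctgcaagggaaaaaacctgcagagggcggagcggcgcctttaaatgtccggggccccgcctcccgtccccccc
Hk2: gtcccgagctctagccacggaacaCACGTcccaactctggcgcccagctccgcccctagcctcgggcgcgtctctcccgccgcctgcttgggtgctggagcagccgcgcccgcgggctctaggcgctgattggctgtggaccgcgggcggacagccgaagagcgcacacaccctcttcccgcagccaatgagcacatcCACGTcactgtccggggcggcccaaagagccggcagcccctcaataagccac
GGGCGG or its reverse complement stood 2 times in the Ldha, 3 times in the Aldoa and 3 times in the Hk2 sequence. ACGTG and GGGCGG were thus present in the promoters shown, of Aldoa (log2 fold change 0.50), Ldha (0.32) and Hk2 (-0.02). A further promoter of Aldoa (chr7:126800448-126800697) and of Ldha (chr7:46846832-46847081) held 0 matches to ACGTG and 0 to GGGCGG.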

How the data were processed

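Whole inguinal white fat was measured by RNA-seq in 10 libraries. The authors deposited raw counts of reads per gene. The submitters' processing notes name STAR 2.0.4b, Subread with featureCounts, and edgeR. For read length, strand, genome build and the counting of multi-mapping reads, nothing is stated in these sources. The table held 40724 rows for 40501 gene identifiers; 117 had repeated rows of equal counts and were kept once. Library totals ran from 11274865 to 19881168 counts. Replicates were compared by chi-square for repeated libraries (lowest value per degree of freedom 7.73), and none was merged.

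Counts were scaled by TMM and filtered with filterByExpr (minimum count 10, minimum total 15) in edgeR 4.0.16 under R 4.3.3, which left 14913 genes, all 10 members among them. Groups were compared by the quasi-likelihood F test of edgeR on all 10 libraries without covariates, with Benjamini-Hochberg adjustment over all genes tested and a threshold of 0.05. Ratios used a prior of 0.5 counts and exact permutation tests, and correlations 100000 permutations (scipy 1.17.1). Coordinates, exon lengths and shared 50-base windows came from GENCODE M21 (GRCm38), in which all 10 members were found by identifier.

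The members, the gene lists and the tests were chosen with earlier results of these data known. Genes named outside the 10 are Dhrs7b, the ratio partners, the genes of each role list past the threshold or else up to 2 with the smallest p, and up to 3 of each cell type list with the highest level; any other is marked in the text as picked with its values known, and 1 gene this rule names is not reported here. The edgeR script was first run on simulated counts. Alternatives were other scalings and filters, DESeq2 1.42.0, limma 3.58.1 voom with and without quality weights, marker scores as covariates, a replicate block and leaving out libraries. Numbers shared by both groups (2, 3 and 5) had correlations of their deviations of -0.02, -0.08 and 0.36, and the labels do not say that they mark a pair, so the main test has no block.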

Additional observations from a re-analysis of the deposited data

Results flagged for a closer look

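In 48 groups of 5 values (levels of the members and ratios, by group), 1 held a library far from the others, where about 1 in 20 groups, or 2.4, would by chance. The log2 ratio of Pfkl to Pfkp was 1.52 in PexRAP-AKO replicate 6, against a next highest of 1.30 and a lowest of 1.25 in that group.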

How the results depend on the processing

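None of the 10 members passed the threshold under 22 of 23 alternatives, and DESeq2 called 1 of them, Aldoa. The count for other pathway genes was 5 with DESeq2, 1 (Tpi1) with voom and quality weights, and 0 to 2 when leaving out each library, with Mlx and Ndrg1 called without PexRAP-AKO replicate 1. Over all genes, the count of 15 became 439 with DESeq2, 107 with quality weights, 98 at an adjusted p under 0.1, 26 without a low-count filter, 7 with the brown adipocyte score, 6 with the muscle score and 5 when both PexRAP-AKO replicate 6 and Control replicate 8 were left out. Leaving out 1 library gave 3 to 58, with 58 without PexRAP-AKO replicate 1, 43 without Control replicate 3 and 3 without Control replicates 7 or 8. With the replicate block on numbers 2, 3 and 5 (6 libraries), 0 members, 0 other pathway genes and 3 of all genes were called. Of these numbers only 5 correlated best with its own number in Control, and such correlations cannot settle whether the numbers mark pairs.

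Directions changed in 7 of 230 member values and 10 of 168 ratio values. Hk2 was 0.019 with quality weights, 0.053 with the block and -0.063 to 0.022 leaving out each library, and Pgk1 was -0.035 with the brown score; the cause was not tested. The log2 ratio differences reversed for medians in place of means in Ldha/Ldhb (0.028), Aldoa/Gapdh (-0.049) and Pkm/Gapdh (-0.061), and leaving out each library gave -0.17 to 0.0058 for Hk2/Hk1, -0.21 to 0.056 for Ldha/Ldhb, -0.052 to 0.18 for Aldoa/Gapdh and -0.027 to 0.11 for Pkm/Gapdh. Over all alternatives the log2 fold change of Aldoa ran from 0.34 to 0.62 (adjusted p 0.0405 to 0.552) and that of Ldha from 0.21 to 0.41. Leaving out each library gave 0.11 (without Control replicate 8; 0.12 without PexRAP-AKO replicate 2) to 0.26 (without Control replicate 3) for Slc2a4, -0.20 (without PexRAP-AKO replicate 6 or Control replicate 2) to -0.019 (without PexRAP-AKO replicate 5) for Slc2a1, 0.22 (without Control replicate 7) to 0.45 (without Control replicate 5) for Pfkl and 0.19 (without PexRAP-AKO replicate 5) to 0.48 (without Control replicate 5) for Pgk1. It gave 0.28 to 0.42 for Gpi1, 0.32 to 0.58 for Gapdh and 0.33 to 0.62 for Pkm. Library totals as scaling shifted all genes by -0.07.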
